A study of Mus musculus with 9 samples.

Results

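The 8 genes described here encode the mouse colony-stimulating factors and the receptor chains that bind them. They were taken by symbol from the deposited count table, in which 13 of 32850 rows carry a member's symbol, and the rows of 1 symbol were summed. All 8 members were found among 24061 symbols. The 3 ligand genes are Csf1 (M-CSF), Csf2 (GM-CSF) and Csf3 (G-CSF), and the 5 receptor genes are Csf1r, Csf2ra, Csf2rb, Csf2rb2 and Csf3r.

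Colony-stimulating factors are secreted proteins that keep myeloid cells alive, make them divide and shape what they become. CSF1 acts on CSF1R, a receptor tyrosine kinase on which macrophages depend. CSF2 binds the alpha chain CSF2RA and signals through a beta chain, which in the mouse is encoded by a pair of neighbouring paralogs. Csf2rb encodes the common beta chain shared by the receptors for GM-CSF, IL-3 and IL-5, and Csf2rb2 encodes a beta chain that serves the IL-3 receptor. CSF3 acts on CSF3R, best known from neutrophils. Macrophages are known to secrete GM-CSF and G-CSF after they sense bacterial products, which recruits and sustains other myeloid cells.

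RNA was sequenced from bone marrow-derived macrophages (BMDMs) of C57BL/6J mice, with 3 libraries in each of 3 groups. Veh cells had DMSO, LPS cells had DMSO for 3 hours and then 10 ng/mL lipopolysaccharide for 2 hours, and T0+LPS cells had 500 nM T0901317 (T0) for 3 hours before the same LPS. Lipopolysaccharide is a cell wall component of Gram-negative bacteria that is sensed by TLR4, and T0 is a synthetic agonist of the liver X receptors (LXRs), nuclear receptors that are activated by sterols. The cells of every group were differentiated for 7 days with 20% L-cell conditioned medium. On day 8 they were treated without serum, with the share of L-cell medium lowered to 4%. L-cell medium is a known source of M-CSF protein, so CSF1R had an outside ligand in all 3 groups, which the RNA counts of Csf1 do not show. The time at which Veh RNA was collected is not given in the sources used here and T0 without LPS was not analysed here. The study's methods call the replicates independently differentiated cultures, and nothing says that they came from separate mice, so p-values measure the spread between cultures.

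Library totals were 13299044 to 16467983 counts, and no 2 libraries agreed within sampling noise. The 5 LPS-response genes Il1b, Tnf, Cxcl1, Ptgs2 and Nfkbia were all higher in LPS than in Veh, with log2 fold changes of 4.95 to 10.24, and the 5 LXR targets Abca1, Abcg1, Srebf1, Scd2 and Mylip were all higher in T0+LPS than in LPS, with log2 fold changes of 1.27 to 3.92. Of 8 macrophage markers, 7 were matched, and their summed level was 20965 to 23094 CPM (counts scaled to a common library size) in Veh, 24506 to 26149 in LPS and 27166 to 28567 in T0+LPS, mostly from Lyz2. Itgam was listed at 0 in all libraries and had 3 countable bases. Markers of fibroblasts summed to at most 0.662 CPM and those of mast cells and basophils to at most 0.0793 CPM. The 9 matched neutrophil markers summed to 77.8 to 83.6 CPM in Veh, 86.1 to 99.5 in LPS and 84.7 to 98.2 in T0+LPS, nearly all of it from Mmp8, with Retnlg listed at 0. Dendritic cell markers summed to at most 0.662 CPM in Veh, 2.91 in LPS and 2.996 in T0+LPS. Markers of T, B and NK cells reached 2.45 CPM at most, and the endothelial markers 14.0 CPM, nearly all from Kdr. The part of other cells in the results below was not tested.

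How much of each gene could be counted differed widely among the members. The authors' counting dropped reads on bases that belong to more than 1 row, so a gene with several transcript rows kept only the bases found in a single row. Csf2, Csf3, Csf1r and Csf2ra were countable over their whole transcripts of 1033, 1363, 3875 and 1849 bases. Csf2rb was countable on 4703 of 4765 bases. Csf1 was countable on 246 bases, or 5.89% of its longest row, in the window chr3:107745595-107745840 (mm10, minus strand). Csf3r was countable on 140 of 3948 bases, in chr4:126037380-126037519 (plus strand), a stretch of exon that only the third of its 3 rows holds. Csf2rb2 was countable on 327 of 4739 bases, which are 2 whole exons that the shorter of its 2 rows skips. The values of Csf1, Csf2rb2 and Csf3r therefore describe a small part of their transcripts.

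**Figure D1:**
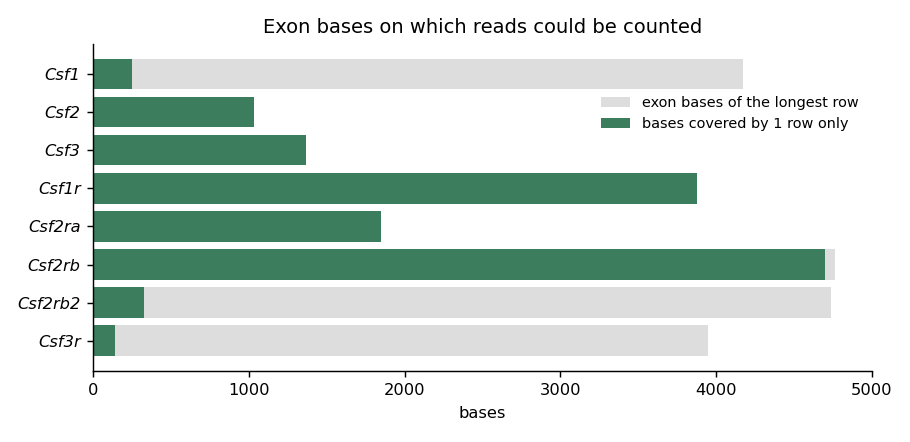
Exon bases of the longest row of each member (grey bars) and bases covered by a single row, on which reads were counted (green bars), both in bases. Csf1, Csf2rb2 and Csf3r were counted on 246, 327 and 140 bases, while the other members were counted over all or nearly all of their length.

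The countable exons of Csf2rb2 are shown because they lie beside near-identical exons of Csf2rb, and the split of reads between the pair rests on them. Csf2rb2 is on the minus strand at chr15:78282508-78305721 and Csf2rb on the plus strand at chr15:78325990-78351001 of mm10, and both exons are coding in the GENCODE M21 annotation of the same build. The first pair of exons (Csf2rb2 chr15:78292708-78292865 and Csf2rb chr15:78340444-78340601) was 158 bases long and differed at 13 positions, with 91.8% identity. The second pair (Csf2rb2 chr15:78292461-78292629 and Csf2rb chr15:78340680-78340848) was 169 bases long and differed at 4 positions, with 97.6% identity. The sequences run 5′ to 3′ along each transcript, and capitals mark the bases at which the 2 genes differ.
Csf2rb2, first exon: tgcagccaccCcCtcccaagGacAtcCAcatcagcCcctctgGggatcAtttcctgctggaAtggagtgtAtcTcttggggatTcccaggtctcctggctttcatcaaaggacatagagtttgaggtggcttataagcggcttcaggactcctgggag
Csf2rb, first exon: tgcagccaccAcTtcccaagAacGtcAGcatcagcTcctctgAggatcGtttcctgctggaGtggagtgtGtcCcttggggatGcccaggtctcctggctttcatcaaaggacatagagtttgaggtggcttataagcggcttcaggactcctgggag
Csf2rb2, second exon: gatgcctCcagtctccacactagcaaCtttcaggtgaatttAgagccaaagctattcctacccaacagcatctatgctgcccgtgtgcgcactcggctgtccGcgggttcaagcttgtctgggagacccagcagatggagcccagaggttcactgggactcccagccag
Csf2rb, second exon: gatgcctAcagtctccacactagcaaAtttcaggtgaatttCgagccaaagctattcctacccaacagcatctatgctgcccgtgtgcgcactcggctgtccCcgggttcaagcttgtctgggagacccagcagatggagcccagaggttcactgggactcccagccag
Across both exons joined, 17 of 327 bases differed and the longest stretch without a difference was 81 bases. A read that falls within such a stretch is the same in both genes, so the counts of Csf2rb2 and Csf2rb are uncertain to that extent.

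LPS raised Csf2, the gene of GM-CSF, from near absence to a low but clear level. Csf2 (chr11:54247270-54249899, minus strand) had 0, 0 and 1 reads in the 3 Veh libraries, 50, 29 and 56 in LPS and 35, 31 and 38 in T0+LPS. In CPM scaled over the 9 libraries these were 0, 0 and 0.0580 in Veh, 3.97, 2.11 and 4.33 in LPS and 2.67, 2.16 and 2.64 in T0+LPS. Every LPS and T0+LPS library was above every Veh library. The mean was 3.47 ± 1.19 CPM (SD, n = 3) in LPS against 0.0193 ± 0.0335 CPM in Veh. In edgeR's quasi-likelihood test the log2 fold change was 6.96 (SE 0.60, 95% interval 5.67 to 8.24, adjusted p = 4.07e-08). As Veh had 1 read, this fold and its interval depend on that read. Without Veh library 3, which held it, the log2 fold change was 8.66, above the interval. The ratio of the pooled rates (reads over the scaled library sizes of a group) was 175 in LPS over Veh, with an exact 95% counting interval of 31.0 to 6982. In bulk RNA, fewer cells that use a gene and less RNA per cell cannot be told apart, and this holds for every value given here.

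Csf3, the gene of G-CSF, was found only in LPS-treated libraries among the 9, at a level below that of Csf2. Csf3 (chr11:98701313-98703629, plus strand) had no read in Veh, 3, 5 and 5 reads in LPS and 5, 6 and 9 in T0+LPS. All 6 LPS-treated libraries held at least 3 reads, and the 0 reads of Veh allow up to 0.0588 CPM (3 counts over the group). Against that floor the pooled rate of Csf3 was 5.63-fold higher in LPS and 8.13-fold higher in T0+LPS. Both folds leave out the counting error of the LPS and T0+LPS reads. The floor and the counting intervals cover counting error only, since the reads carry no molecular identifiers. Csf3 did not pass the filter on low counts, so it has no test in the main fit. With no filter edgeR gave an adjusted p of 0.000537 for LPS against Veh, and DESeq2 gave 0.00478.

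Csf1, the gene of M-CSF, was barely measured. Csf1 (chr3:107741048-107760469, minus strand) had no read in Veh, 3, 0 and 4 reads in LPS and 2, 0 and 2 in T0+LPS. At least 1 library of each LPS-treated group was therefore at 0, as were all Veh libraries, and the groups overlapped. Over the group, the pooled rate of the 7 LPS reads was 3.03 times the Veh floor and that of the 4 T0+LPS reads 1.62 times. These folds leave out the counting error of the 7 and 4 reads, so they are not lower bounds. The counting interval was up to 0.0722 CPM in Veh, 0.0716 to 0.367 in LPS and 0.0260 to 0.244 in T0+LPS. The intervals of both LPS-treated groups thus overlapped that of Veh, in LPS only at its edge. Csf1 did not pass the filter. With no filter edgeR gave an adjusted p of 0.0173 for LPS against Veh, and DESeq2 gave 0.0764. Whether the rest of the transcript behaved like its 246 countable bases could not be read from these counts.

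**Figure D2:**
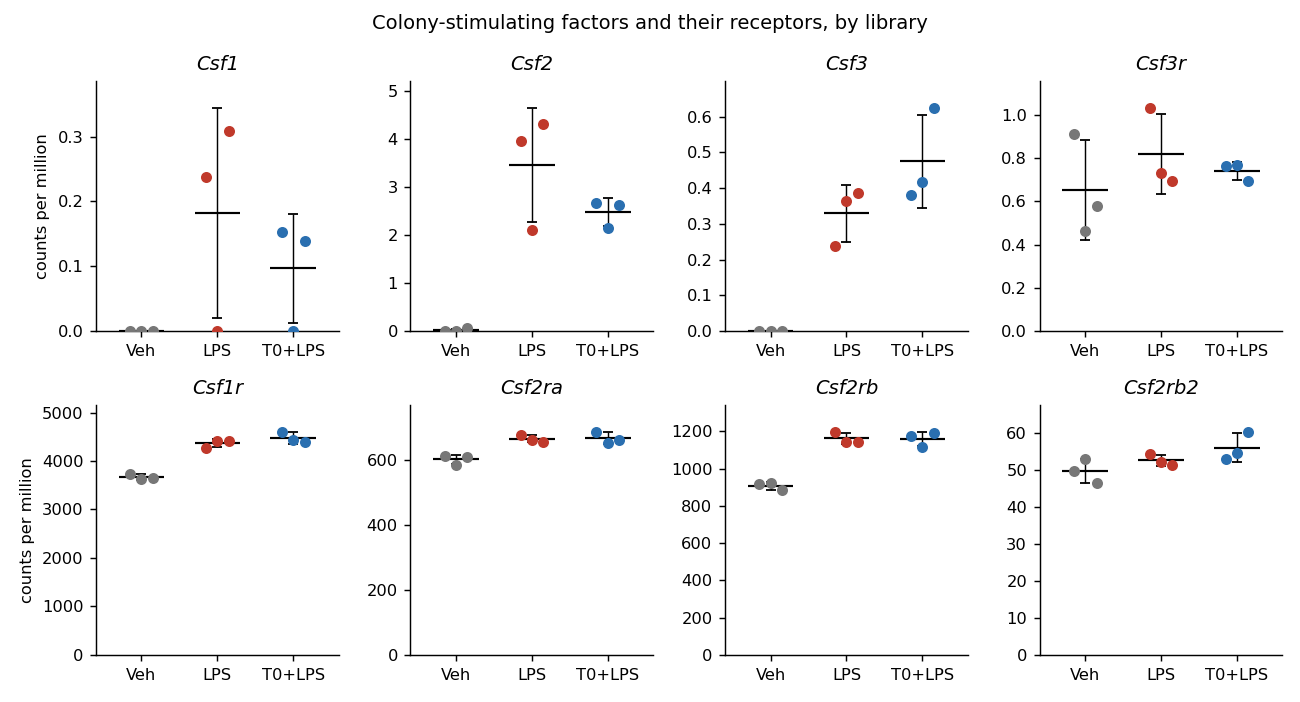
CPM of each member in the 9 libraries, scaled by TMM factors over all libraries, with 1 point per library, the mean as a horizontal line and the SD as bars. Csf2 lies between 2.11 and 4.33 CPM in all 6 LPS-treated libraries and at or near 0 in Veh, while Csf1r, Csf2ra and Csf2rb have group means of 603 to 4475 CPM.

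The receptor genes were expressed in all libraries, with Csf1r, Csf2ra and Csf2rb among the more abundant genes of these cells. In CPM per kilobase of countable bases, the mean level in Veh was 946 ± 16.8 (SD, n = 3) for Csf1r, 326 ± 8.10 for Csf2ra, 193 ± 4.46 for Csf2rb and 152 ± 9.78 for Csf2rb2. The order was Csf1r, Csf2ra, Csf2rb and Csf2rb2 in every library, and the values of neighbours in this order did not overlap within any group. Csf1r ranked 40 among 14120 symbols with at least 100 countable bases in Veh, 45 in LPS and 44 in T0+LPS. Csf2ra ranked 172 in Veh, Csf2rb 324 and Csf2rb2 423. Csf3r was at 4.65 ± 1.65 on the same scale in Veh, 5.84 ± 1.32 in LPS and 5.29 ± 0.291 in T0+LPS. The ligands were far lower than Csf1r, Csf2ra, Csf2rb and Csf2rb2, with Csf1 at 0.741 ± 0.658, Csf2 at 3.36 ± 1.15 and Csf3 at 0.242 ± 0.0587 in LPS. In LPS the Csf2 values, 2.04 to 4.19, were all below the lowest Csf3r value of 4.97, by a gap smaller than the SD of either gene.

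LPS moved the receptor genes by small amounts, and their direction depended on how the libraries were scaled. Of the 8 members, 5 passed the filter on low counts in the comparison of LPS with Veh. With TMM factors 4 of these, Csf2, Csf1r, Csf2ra and Csf2rb, were higher and 0 were lower, while among all 9559 symbols tested 32.9% were called higher and 31.2% lower. The same 4 members did not overlap between the groups, against 33.9% of all symbols not overlapping upward and 33.6% downward. Csf2, with 0, 0 and 1 reads in Veh, passed the filter only through its LPS libraries, so here it could only come out higher. When library totals were used in place of TMM factors, 1 member was called higher and 2 were called lower, and the median log2 fold change of all symbols moved to -0.28.

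Csf1r (chr18:61105572-61131139, plus strand) was at 3742, 3620 and 3640 CPM in Veh and at 4274, 4421.5 and 4420.0 in LPS. All LPS libraries were above all Veh libraries on this scale. Its log2 fold change was 0.26 (SE 0.04, adjusted p = 1.96e-05, edgeR) with TMM factors and -0.03 (adjusted p = 0.519) with library totals. Csf2ra (chr19:61224402-61228418, minus strand), the GM-CSF-binding chain, was at 614, 586 and 609 CPM in Veh and 678, 664 and 656 in LPS, again without overlap. Its log2 fold change was 0.15 (SE 0.04, adjusted p = 0.00376, edgeR) with TMM factors and turned to -0.14 (adjusted p = 0.00448) with library totals. Csf2ra thus passed the threshold in both directions, depending on the scaling.

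Csf2rb, the signaling chain, was at 918, 922 and 884 CPM in Veh and 1197, 1144 and 1145 in LPS. Its rise was the largest among the 4 receptor genes tested, and its sign was the same with both scalings. The log2 fold change was 0.36 (SE 0.04, adjusted p = 7.30e-07, edgeR) with TMM factors and 0.08 (adjusted p = 0.075) with library totals. Csf2rb2 was at 49.9, 53.0 and 46.6 CPM in Veh and 54.3, 52.2 and 51.4 in LPS, and the groups overlapped. Its log2 fold change was 0.08 (SE 0.06, 95% interval -0.04 to 0.21, adjusted p = 0.229, edgeR) with TMM factors, and -0.20 (adjusted p = 0.00566) with library totals. All 4 receptor genes were above the median of all symbols, which lay at -0.00187 with TMM factors and at -0.28 with library totals. The change of scaling shifts all symbols by nearly the same amount, so library totals add no separate observation of this.

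**Figure D3:**
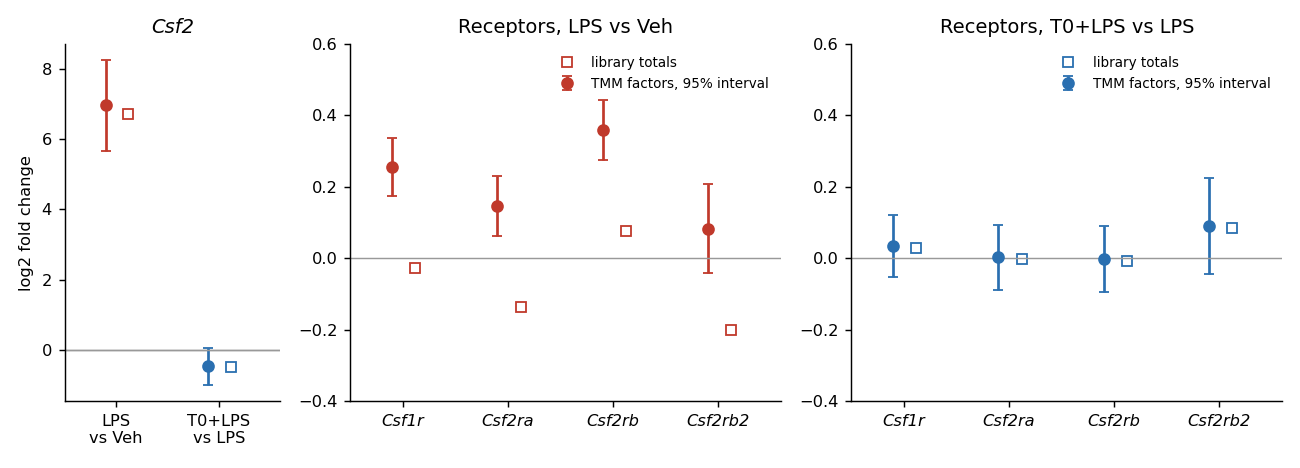
Log2 fold changes of Csf2 (left) and of 4 receptor genes (middle and right) in LPS against Veh (red) and T0+LPS against LPS (blue), with filled circles and 95% intervals for TMM factors and open squares for library totals. In LPS against Veh the squares of the receptor genes lie below the circles and cross 0 for Csf1r, Csf2ra and Csf2rb2, while in T0+LPS against LPS both scalings lie near 0 for the receptors.

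Csf3r (chr4:126024659-126044975, plus strand) had 17, 7 and 10 reads in Veh, 13, 10 and 9 in LPS and 10, 11 and 10 in T0+LPS on its 140 countable bases. The 3 groups overlapped throughout. The ratio of pooled rates was 1.22 in LPS over Veh, with a counting interval of 0.731 to 2.04. A difference within that interval was not detectable at this depth and on so few bases.

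Ratios between receptor genes within a library do not depend on the scaling. The log2 ratio of Csf2rb to Csf2ra counts was 0.58, 0.66 and 0.54 in Veh and 0.82, 0.79 and 0.80 in LPS, a mean difference of 0.21 with no overlap. The common beta chain gene thus stood higher against the alpha chain gene in every LPS library than in any Veh library. The log2 ratio of Csf2rb to Csf1r was higher in LPS by 0.10 and that of Csf1r to Csf2ra by 0.11, each without overlap between the groups. The first log2 ratio is the sum of these, so the 3 ratios are not separate results. They were chosen after the data were seen. How often ratios of other genes do not overlap was not computed. The order of change from Veh to LPS among these 3 genes was Csf2rb, Csf1r and Csf2ra. With 3 libraries against 3, the exact permutation test cannot go below p = 0.1 (2-sided), and it gave p = 0.1 for these 3 ratios, or 0.171 after adjustment over 12 ratio comparisons.

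Within the pair of beta chain genes, Csf2rb2 had a smaller share of the reads in LPS. Csf2rb2 was counted only on exons that its shorter row skips. A change in RNA of the gene and a change in use of these exons therefore cannot be told apart. A share also falls when the other gene rises. In LPS against Veh the log2 fold changes of Csf2rb and Csf2rb2 were 0.36 and 0.08 with TMM factors. With library totals they were 0.08 and -0.20. Of the reads on both genes, Csf2rb2 held 5.15, 5.43 and 5.01% in Veh, 4.34, 4.36 and 4.29% in LPS and 4.31, 4.66 and 4.83% in T0+LPS. No LPS library reached the lowest Veh share. The mean share was 5.20 ± 0.216% (SD, n = 3) in Veh and 4.33 ± 0.0336% in LPS, a difference of -0.866 percentage points (exact permutation p = 0.1, the smallest this design allows, adjusted p = 0.15 over 3 comparisons). Per countable base the share was 44.1 ± 1.08% in Veh and 39.4 ± 0.194% in LPS. T0+LPS, at 4.60 ± 0.263%, overlapped LPS (exact permutation p = 0.3).

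**Figure D4:**
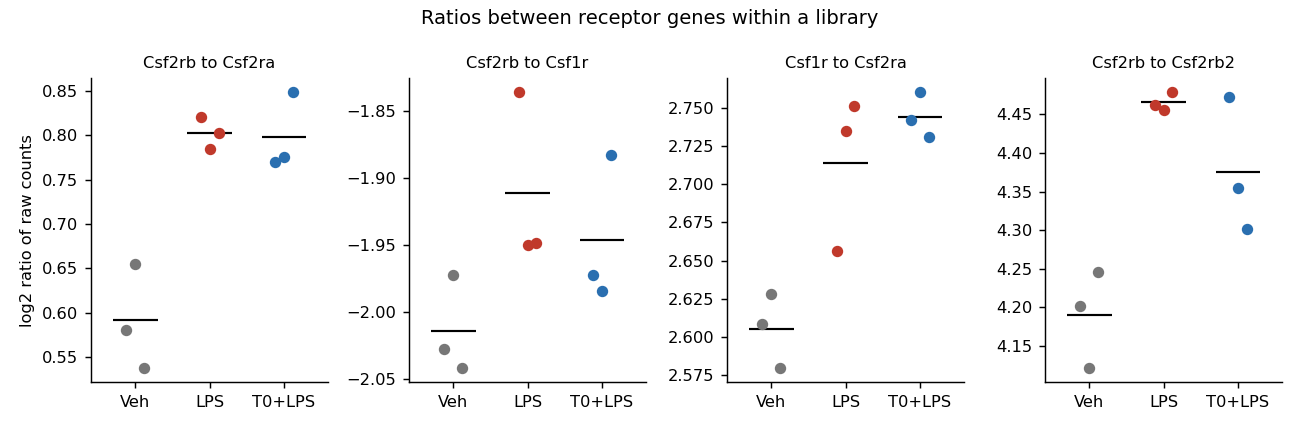
Log2 ratios of raw counts between pairs of receptor genes, with 1 point per library and the mean of each group as a line. The axes do not start at 0. In all 4 ratios the Veh points lie below the LPS points, while T0+LPS overlaps LPS.

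The addition of T0 before LPS changed no member past the threshold. Of the 6 members tested in T0+LPS against LPS, edgeR called 0 higher and 0 lower. DESeq2 also called 0, but it gave no adjusted p for Csf2 and Csf3r. No member had an unadjusted p under 0.05 in the main edgeR test, and none was without overlap between the groups. Among all 9348 symbols tested, 1.35% were called higher and 1.83% lower, and 9.36% did not overlap upward and 9.79% downward. Few symbols of the whole table passed the threshold in this comparison.

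The Csf2 mean was lower with T0, at 2.49 ± 0.284 CPM (SD, n = 3) against 3.47 ± 1.19 in LPS. LPS library 2, at 2.11 CPM, was below all 3 T0+LPS libraries, while the other LPS libraries were above them. The log2 fold change was -0.47 (SE 0.25, 95% interval -1.01 to 0.06, adjusted p = 0.442, edgeR). This interval spans a fall to 0.498-fold and a rise to 1.05-fold. The value rested on single libraries: it was -0.74 (adjusted p = 0.083) without LPS library 2 and -0.27 without LPS library 3. Csf3 pointed the other way, with 20 reads in T0+LPS and 13 in LPS, a ratio of pooled rates of 1.44 with a counting interval of 0.683 to 3.16, which includes no change. Csf1, with 4 reads against 7, had a ratio of pooled rates of 0.536 with an interval of 0.115 to 2.11.

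The receptor genes were placed within narrow limits. Csf1r was at 4608, 4426 and 4391 CPM in T0+LPS, with a log2 fold change of 0.03 against LPS (95% interval -0.05 to 0.12, adjusted p = 0.800, edgeR). Csf2ra was at 689, 653 and 661 CPM, with a log2 fold change of 0.00374 (95% interval -0.09 to 0.09). Csf2rb was at 1175, 1118.5 and 1191 CPM, with a log2 fold change of -0.00104 (95% interval -0.09 to 0.09). For Csf1r, Csf2ra and Csf2rb the intervals leave room for a change of at most 1.09-fold upward and 0.938-fold downward. Csf2rb2 was at 52.9, 54.7 and 60.4 CPM, with a log2 fold change of 0.09 (95% interval -0.04 to 0.23, adjusted p = 0.591). Csf3r had a log2 fold change of -0.14 with a wide interval of -0.88 to 0.61.

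T0+LPS was also set against Veh, with the same libraries as in the other 2 comparisons, so these values are given beside them and not as independent support. Of 6 members tested, 5 were called higher and 0 lower, against 32.4% and 32.9% of all 9636 symbols tested. Csf2 again passed the filter only through its T0+LPS libraries, so it could only come out higher. Csf2 had a log2 fold change of 6.47 (SE 0.53, adjusted p = 2.50e-08, edgeR), and without Veh library 3 it was 8.23. Csf1r had 0.27, Csf2ra 0.13 and Csf2rb 0.33 with TMM factors. With library totals Csf1r was at 0.0026 (adjusted p = 0.948, edgeR) and Csf2rb at 0.07 (adjusted p = 0.077), so that both calls were lost, Csf2ra turned to -0.14, and 1 member was called higher and 1 lower. Csf2rb2 had a log2 fold change of 0.15 (SE 0.06, adjusted p = 0.0399, edgeR) with TMM factors, which turned to -0.11 with library totals. That call was also lost in DESeq2 (adjusted p = 0.065) and without Veh library 1 (0.076), Veh library 3 (0.18) or T0+LPS library 3 (0.16).

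Genes that carry CSF receptor signals inside the cell were taken as a list of 32, which holds JAK and STAT genes, adaptors, SRC-family kinases and the brakes of the pathway. In LPS against Veh 17 were tested, 11 were higher and 2 lower, with a median log2 fold change of 0.44 beside -0.00187 for all symbols, of which 32.9% were called higher and 31.2% lower. With library totals 8 were called higher and 5 lower. The others could not be tested, and among them Stat3, Gab2, Ptpn11, Inpp5d and Dok1, chosen after their values were seen, held no read in any library and had at most 12 countable bases each. Counts for this pathway are therefore incomplete.

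The largest rises were in feedback inhibitors of cytokine signaling. Socs3, a suppressor of JAK-STAT signaling that is known to act on the G-CSF receptor, was at 0.428, 0.926 and 0.754 CPM in Veh and 659, 601 and 614 CPM in LPS. Its log2 fold change was 9.82 (SE 0.10, adjusted p = 7.49e-20, edgeR). Cish, a related inhibitor and a known STAT5 target of GM-CSF and IL-3 signaling, was at 0.321, 0.463 and 0.232 CPM in Veh and 34.5, 25.6 and 25.6 CPM in LPS, with a log2 fold change of 6.39 (SE 0.22, adjusted p = 2.00e-13). Both genes were far above Veh in each LPS library. The kinase genes Fgr and Syk rose by 2.39 and 1.87 on the log2 scale. Cblb, a ubiquitin ligase gene, fell by 0.69. Stat5b, named after its values were seen, was the other gene called lower, and its call was lost without Veh library 2 (adjusted p = 0.0568), LPS library 2 (0.0655) or LPS library 3 (0.0561) and in DESeq2 (0.0702).

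In T0+LPS against LPS, 18 of the 32 were tested, 1 was higher and 2 lower, with a median log2 fold change of -0.00534 beside 0.00282 for all symbols, of which 1.35% were called higher and 1.83% lower. Socs3 was lower, at 423, 490 and 521 CPM, with a log2 fold change of -0.39 (SE 0.06, adjusted p = 0.00255, edgeR). All 3 T0+LPS libraries were below all LPS libraries. Cish was also lower, at 12.8, 15.3 and 22.1 CPM, with a log2 fold change of -0.76 (SE 0.16, adjusted p = 0.0124), and again the groups did not overlap. The Cish call was lost without LPS library 1 (adjusted p = 0.0776) or T0+LPS library 2 (0.0798) and in DESeq2 (0.106). Cblb was higher, at 140, 147 and 143 CPM against 121, 122 and 129 in LPS, a difference of 0.21 on the log2 scale (adjusted p = 0.0283, edgeR). That call was lost without LPS library 1 (0.186), LPS library 2 (0.0813), T0+LPS library 2 (0.122) or T0+LPS library 3 (0.0817). In T0+LPS against Veh, 11 of 17 were higher and 1, Cblb, was lower, against 32.4% and 32.9% of all symbols. With library totals 8 were higher and 5 lower, and Grb2, an adaptor gene named after its values were seen, turned from called higher to called lower (adjusted p = 0.0115, edgeR).

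**Figure D5:**
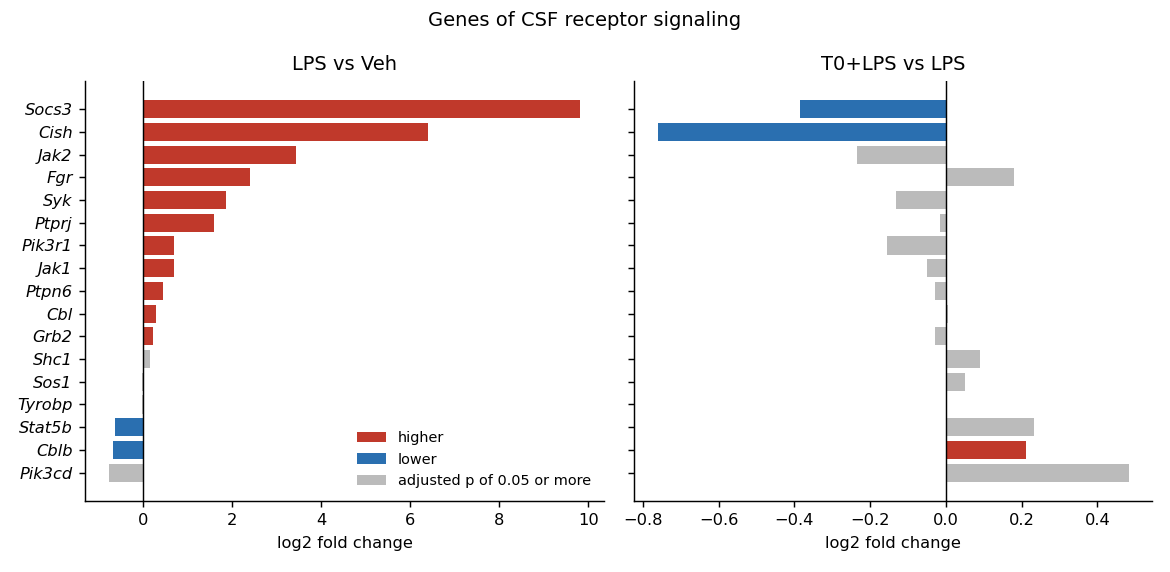
Log2 fold changes of the 17 genes of CSF receptor signaling tested in LPS against Veh (left) and the same genes in T0+LPS against LPS (right), with genes called higher in red, called lower in blue and the rest in grey. The 2 axes differ in range. Socs3 and Cish have the largest values on the left, at 9.82 and 6.39, and are the genes called lower on the right, at -0.39 and -0.76.

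A list of 9 related ligands and receptors held 2 genes that could be tested. Il3ra, the IL-3 receptor alpha chain that pairs with both beta chains, was at 102 CPM in Veh, 105 in LPS and 108 in T0+LPS, with a log2 fold change of 0.05 in LPS against Veh (adjusted p = 0.469, edgeR). It is named after its values were seen. With library totals this value was -0.24 (adjusted p = 0.000742). Kitl, the gene of stem cell factor, was at 34.3 ± 2.45 CPM (SD, n = 3) in Veh and 19.1 ± 1.70 in LPS, a log2 fold change of -0.84 (SE 0.08, adjusted p = 1.63e-07), and it had -0.97 in T0+LPS against Veh. Neither gene passed the threshold in T0+LPS against LPS. Il34, the other ligand of CSF1R, had no read in any library on 118 countable bases, and neither did Il3, Il5, Il5ra or Kit, the last with 16 countable bases.

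Transcription factor genes known from the control of myeloid receptor genes formed a list of 12, of which 7 were tested. In LPS against Veh 5 were higher and 2 lower, with a median log2 fold change of 1.16, beside 32.9% higher, 31.2% lower and a median of -0.00187 for all symbols. Spi1, which encodes PU.1, the factor long known to act on the Csf1r, Csf2ra and Csf3r genes, was at 557, 553 and 559 CPM in Veh and 1248, 1285 and 1182 in LPS, a log2 fold change of 1.16 (SE 0.04, adjusted p = 3.58e-13, edgeR). Tfec, Ets2 and Cebpd rose by 4.11, 3.89 and 3.10 on the log2 scale. Irf8 fell, from 432, 446 and 430 CPM in Veh to 177, 171 and 168 in LPS, a log2 fold change of -1.34, and Fli1 fell by 1.05. With T0, Irf8 was called higher than in LPS, at 254, 254 and 260 CPM, a log2 fold change of 0.58 (SE 0.05, adjusted p = 1.18e-06, edgeR), and no other gene of the list passed the threshold in the main test. Fli1 passed it without T0+LPS library 3 (0.0380), with no filter (0.00920), in a fit of all 9 libraries (0.0280) and with a replicate block (0.0428), and Ets2 with no filter (0.0119) and in the fit of all 9 libraries (0.0373). In T0+LPS against Veh the counts were again 5 higher and 2 lower. Csf1r, Csf2ra, Csf2rb and Csf2rb2 moved far less than Spi1 in these 2 hours, with log2 fold changes of at most 0.36 with TMM factors. Csf3r was not tested in LPS against Veh, and its counting interval reached a ratio of 2.04.

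Upstream sequence was read from the RefSeq promoter table of build GRCm38.p6 for 5 members (Csf1, Csf2, Csf2ra, Csf2rb2 and Csf3r), each starting where a counted row starts. The 250 bases before the start are shown for Csf2, the member with the largest change, and for Csf2ra, whose window ends in 2 adjacent copies of the PU.1 letters. Capitals mark letters that match a searched motif on either strand.
Csf2, chr11:54249900-54250149, minus strand: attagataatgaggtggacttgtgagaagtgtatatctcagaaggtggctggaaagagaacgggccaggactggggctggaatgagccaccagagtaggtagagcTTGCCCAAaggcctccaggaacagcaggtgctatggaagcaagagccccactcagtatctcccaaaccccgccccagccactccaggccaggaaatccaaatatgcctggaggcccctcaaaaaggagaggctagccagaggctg
Csf2ra, chr19:61228419-61228668, minus strand: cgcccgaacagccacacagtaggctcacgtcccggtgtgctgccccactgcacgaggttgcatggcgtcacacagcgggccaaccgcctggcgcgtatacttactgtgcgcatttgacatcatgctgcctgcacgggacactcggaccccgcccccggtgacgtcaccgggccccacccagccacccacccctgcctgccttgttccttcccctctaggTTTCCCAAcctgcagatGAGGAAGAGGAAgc
The PU.1 letters GAGGAA were found in 3 of the 5 windows (Csf2ra, Csf2rb2 and Csf3r) and in 23.3% of all 32851 promoter windows of this length. The NF-kB letters GGANTTTCC matched 1 window, that of Csf1, and 1.07% of all windows, while GGGNNTTCC matched 0 of 5 and 4.98% of all. The C/EBP letters TTNNGNAA matched 2 windows (Csf2 and Csf2ra) and 36.8% of all. The AP-1 letters TGANTCA, the TATA box TATAAA and the nuclear receptor letters AGGTCA were in none of the 5 windows, and in 6.75, 12.4 and 14.0% of all windows. No 2 of these matches overlapped. For Csf2 the start in GENCODE M21 lies 232 bases downstream of the RefSeq start, so the bases just before that start are not in the window. A match is a description of letters, and no match says only that these letters are not in these windows.

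The genes whose levels ran most like each member were found by Pearson's correlation of log2(CPM + 1) over the 9 libraries, among 7297 other symbols with a mean of at least 5 CPM. These values describe patterns that the libraries' groups largely set, and they are given without a test. Csf2 was most like Zbtb11 (r = 0.996) and Kbtbd2 (r = 0.995), Csf1r like Srsf6 (0.996) and Srxn1 (0.995), Csf2ra like Sf3b6 (0.983) and Tmbim1 (0.980), and Csf2rb like Tmem120b (0.998) and Zfp654 (0.995). For Csf2rb2 the highest were Atr (0.912) and Alg3 (0.891), and for Csf3r Spsb3 (0.867) and Dexi (0.846). Csf2rb2 and Csf3r had the lowest values and the fewest countable bases among the members tested. Neither was called in LPS against Veh, where Csf3r was not tested. What lowered their values was not tested.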

How the data were processed

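Poly(A) RNA of 9 BMDM libraries was sequenced on a NextSeq 500 with a kit that does not mark strand. The authors trimmed reads with cutadapt, aligned them with HISAT2 to mm10 and counted them with featureCounts on RefSeq rows, and the deposited values are raw counts per row. The 6696 rows with no base of their own held 0 reads. The authors' tables of normalized values and comparisons were not used. The members and lists were chosen with earlier results of these data known.

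Counts were summed per symbol. Each pair of groups (3 libraries against 3) was fitted with edgeR 4.0.16 (filterByExpr, TMM factors, glmQLFit and glmQLFTest) in R 4.3.3, with Benjamini-Hochberg adjustment over all symbols tested and a threshold of 0.05. The steps were tested on simulated data. CPM used TMM factors over the 9 libraries. Levels of different genes were compared per kilobase of bases covered by 1 row only. The SE of an edgeR log2 fold change was derived from the F value of its test, and its 95% interval is a symmetric t interval. Single values were compared by exact permutation over libraries. Intervals of counts are exact at 95%, and a group at 0 was given a floor of 3 counts over the group. Named genes were the 8 members, up to 4 symbols per list, comparison and direction with the largest change and a mean of at least 5 CPM, the treatment checks, and the 2 symbols most like each tested member. Alternatives were DESeq2 1.42.0 and its size factors, library totals, other filters, limma-voom (limma 3.58.1), one fit of 9 libraries, unsummed rows, a replicate block, a threshold of 0.1 and each library left out. Ratios of receptor counts were added after seeing the data. Totals of 13299044 to 16467983 counts per library limit what can be said of Csf1, Csf3 and Csf3r. The few countable bases of Csf1 and Csf3r limit it further.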

Additional observations from a re-analysis of the deposited data

How the results depend on the processing

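The scaling moved the calls of the receptor genes against Veh. TMM factors were 1.10 to 1.11 in Veh and 0.901 to 0.916 in LPS in the fit of LPS against Veh. With library totals, LPS against Veh gave 1 member higher and 2 lower and 1694 symbols higher and 5411 lower, beside 3148 and 2981, and Csf1r reversed to -0.0262, Csf2ra to -0.14 and Csf2rb2 to -0.20 on the log2 scale. T0+LPS against Veh gave 1 member higher and 1 lower and 1659 symbols higher and 5523 lower, beside 3121 and 3172, and Csf2ra reversed to -0.14, Csf2rb2 to -0.11 and Csf3r to -0.13. The cause was not tested.

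In T0+LPS against LPS no alternative called a member. Over all symbols 126 were higher and 171 lower, and 225 and 285 with no filter. Changes near 0 reversed sign. Csf2ra went to -0.00115 with library totals, and Csf2rb to 0.00342 with no filter and 0.00149 by rows. With each library left out in turn, Csf2ra ranged from -0.0178 to 0.0217, Csf2rb from -0.0173 to 0.0276 and Csf3r from -0.235 to 0.0538. Csf3r ranged from -0.0415 to 0.469 in T0+LPS against Veh, the lowest without Veh library 2. The T0+LPS minus LPS difference ranged from -0.0299 to 0.00942 for the log2 ratio of Csf2rb to Csf2ra and from -0.0668 to 0.00288 for that of Csf2rb to Csf1r.

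With 1 library left out, 59 to 167 symbols were higher and 82 to 191 lower in T0+LPS against LPS, the lowest counts without LPS library 1. Members called stayed at 4 higher and 0 lower in LPS against Veh, and at 4 to 5 higher in T0+LPS against Veh.

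The labels do not say whether replicate numbers pair the libraries. Same-numbered libraries deviated together with r of -0.0135 to 0.0462, which does not exclude a pairing. With a replicate block edgeR gave Csf2 a log2 fold change of -0.46 in T0+LPS against LPS (adjusted p = 0.354) and 6.99 in LPS against Veh. With the block Csf2rb2 in T0+LPS against Veh had an adjusted p of 0.0542. With the block in DESeq2, 70 symbols were higher and 80 lower in T0+LPS against LPS, and 1982 lower in T0+LPS against Veh.

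Per kilobase of the deposited length in place of countable bases, Csf2rb2 was at 10.5 in Veh and Csf3r at 0.165. Low counts limit Csf1, Csf3 and Csf3r, with 0 to 17 reads a library. Of these, Csf1 and Csf3r were countable on only 246 and 140 bases.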
